A study of Homo sapiens with 12 samples.

Results

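The core output of the Ras, MEK and ERK cascade in bronchial cells was taken here as the genes whose reading lay on the same side of control in every culture with the cascade inhibited. All 9 inhibited arrays had to lie above, or all 9 below, all 3 control arrays. Of 10532 genes measured, 1103 met this rule (10.5%), 473 of them higher (4.49%) and 630 lower (5.98%) with the cascade inhibited. They are called core genes below, and each count of core genes in a gene list is to be read beside these shares.

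The cells were 16HBE, an immortalised line of bronchial epithelial cells, and every culture carried the retroviral vector pQCXIP by stable infection. In 1 group of vector cells the MEK inhibitor GSK1120212 was given at 500 nM, and in another the ERK inhibitor SCH772984 at 1 µM, each for 4 days. A further group carried pQCXIP with dominant-negative Ras N17, a form that ties up the factors that load Ras with GTP. For these cells no solvent and no length of treatment is given, nor do the labels say whether the infected cells were a pool or a clone. Control cells carried the empty vector and received DMSO for 4 days. Each group had 3 arrays, from 3 independent experiments per the series' design text, all on a single cell line. The dominant-negative Ras cells thus differed from control in the insert and possibly in the solvent, and the 2 inhibitors differed from each other in agent and dose.

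Growth factor receptors load Ras with GTP, Ras switches on RAF kinases, RAF phosphorylates MEK, and MEK phosphorylates ERK. ERK in turn phosphorylates transcription factors of the ETS family, some of which act with serum response factor to switch on immediate-early genes such as EGR1. It also switches on its own brakes, among them the DUSP phosphatases and the Sprouty and SPRED proteins. In airway epithelium the cascade lies downstream of the EGF receptor and takes part in growth, repair and the release of chemokines.

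Promoters of 5 core genes are printed because 2 kinds of motif that factors downstream of the cascade bind are found in them. The 250 bases before the start of each gene are from RefSeq on GRCh38.p14, read 5′ to 3′ on the gene's strand, with the motif in capitals. The motif is the CArG box, bound by serum response factor, in EGR1 (2 copies) and ACTA1 (1 copy), and the AP-1 element TGANTCA in CXCL8, IL1A and IL1RN (1 copy each).
EGR1, chr5:138465229-138465478, plus strand: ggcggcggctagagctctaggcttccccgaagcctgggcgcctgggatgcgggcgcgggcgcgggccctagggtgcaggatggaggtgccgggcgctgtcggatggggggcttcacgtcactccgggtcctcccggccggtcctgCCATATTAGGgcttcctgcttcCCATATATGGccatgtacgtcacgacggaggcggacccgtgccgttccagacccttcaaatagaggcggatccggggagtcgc
ACTA1, chr1:229434095-229434344, minus strand: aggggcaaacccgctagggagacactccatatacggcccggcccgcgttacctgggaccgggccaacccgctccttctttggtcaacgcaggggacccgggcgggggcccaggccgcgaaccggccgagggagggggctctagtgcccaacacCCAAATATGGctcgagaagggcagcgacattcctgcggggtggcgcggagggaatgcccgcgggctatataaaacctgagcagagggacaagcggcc
CXCL8, chr4:73740319-73740568, plus strand: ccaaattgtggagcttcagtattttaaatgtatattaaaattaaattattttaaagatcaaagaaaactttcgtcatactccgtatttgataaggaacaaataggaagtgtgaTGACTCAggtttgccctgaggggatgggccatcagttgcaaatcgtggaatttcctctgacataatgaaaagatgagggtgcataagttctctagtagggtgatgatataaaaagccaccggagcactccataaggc
IL1A, chr2:112784494-112784743, minus strand: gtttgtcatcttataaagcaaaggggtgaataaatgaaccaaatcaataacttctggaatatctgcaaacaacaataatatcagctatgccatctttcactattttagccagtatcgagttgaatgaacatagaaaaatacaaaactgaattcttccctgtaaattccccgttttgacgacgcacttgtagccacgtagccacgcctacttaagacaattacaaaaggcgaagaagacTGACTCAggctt
IL1RN, chr2:113117721-113117970, plus strand: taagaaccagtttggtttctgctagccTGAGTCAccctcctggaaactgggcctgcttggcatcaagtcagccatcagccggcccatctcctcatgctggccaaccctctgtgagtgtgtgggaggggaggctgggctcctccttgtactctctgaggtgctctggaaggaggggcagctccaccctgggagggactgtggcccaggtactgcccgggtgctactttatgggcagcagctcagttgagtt
Both strands were searched. RefSeq windows were matched for 8581 of the 10532 genes, for 510 of the 630 core genes below control and for 395 of the 473 above it. A CArG box was found in 4 promoters of core genes below control (0.784%), in 8 of core genes above control (2.03%) and in 87 of all (1.01%). The AP-1 element was found in 19 promoters of core genes below control (3.73%), in 20 of core genes above control (5.06%) and in 338 of all (3.94%). Of other motifs searched, the ETS motif CCGGAAGT was found in 32 promoters of core genes below control (6.27%). It was found in 15 of core genes above control (3.8%) and in 655 of all (7.63%). The 5 printed promoters were picked for holding a motif and do not stand for the core genes. The motifs were thus found in promoters of core genes of both directions, EGR1 lying below control and ACTA1 above it. A match is a run of letters and not a measured binding site.

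Between 16825 and 18295 of 47322 probes were detected per array, and the median probe was read from 21 or 22 beads. Pairs of arrays within a group had r between 0.978 and 0.993 over genes, a relation between genes and not between replicates. The array that differed most from its group was dominant-negative Ras replicate 3: 85 genes read at least 2-fold above or at least 2-fold below both of its fellow arrays, and the like count was 22 or fewer on any other array. Without it, 1275 genes met the rule. All 10 epithelial markers examined were detected on all 12 arrays, and 9 of 11 markers of ciliated and secretory airway cells on none. Of 14 leukocyte markers, PTPRC, CD3D, CD3E, LYZ, NKG7 and TYROBP were detected on no array, CD14, CD68 and FCGR3A on all 12, CORO1A on 8, LAPTM5 on 5, ITGAM on 2, and CD79A and MS4A1 on 1. The Ras gene behind the N17 construct is not named in the labels. HRAS, looked up after its values were seen, read 9.14, 9.20 and 8.95 with the MEK inhibitor, 8.70, 9.20 and 8.90 with the ERK inhibitor and 9.09, 8.95 and 8.93 with dominant-negative Ras, against 8.78, 8.61 and 8.81 in control cells. Of the inhibited groups, the ERK inhibitor arrays overlapped control in HRAS. In bulk RNA, fewer cells of a type and less RNA per cell cannot be told apart.

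Values below are normalized log2 intensities, and a difference of 1 is 2-fold. The pooled difference is the mean of the 3 inhibited groups minus control, from limma's fit across all genes. Since the rule was applied to the same contrast, the pooled difference of a core gene is given as a description with its SE and with no p. Over all 10532 genes, 1743 passed limma's test of the pooled difference at an adjusted p under 0.05 (16.5%), 835 higher (7.93%) and 908 lower (8.62%). The count was 785, 1127 and 1009 without control replicates 1, 2 and 3, and median scaling of the arrays gave 891 genes past the test and 570 core genes. Of the core genes, 931 were among those of the pooled test, 409 higher and 522 lower, and 172 were not. The median pooled difference was 0.48 over the core genes above control and -0.47 over those below it, beside 0.00 over all genes. At least 2-fold differences, as read, were found for 48 core genes above control and 88 below it, all of which passed. Readings not above background were counted at their own value. The lower bound of such a gene can thus fall under 2-fold, and that of SH2D5, given below, does. The gap, the distance between the nearest inhibited and control arrays, exceeded 1 for 9 core genes above control and 12 below it, and its median was 0.10 in both directions.

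**Figure D1:**
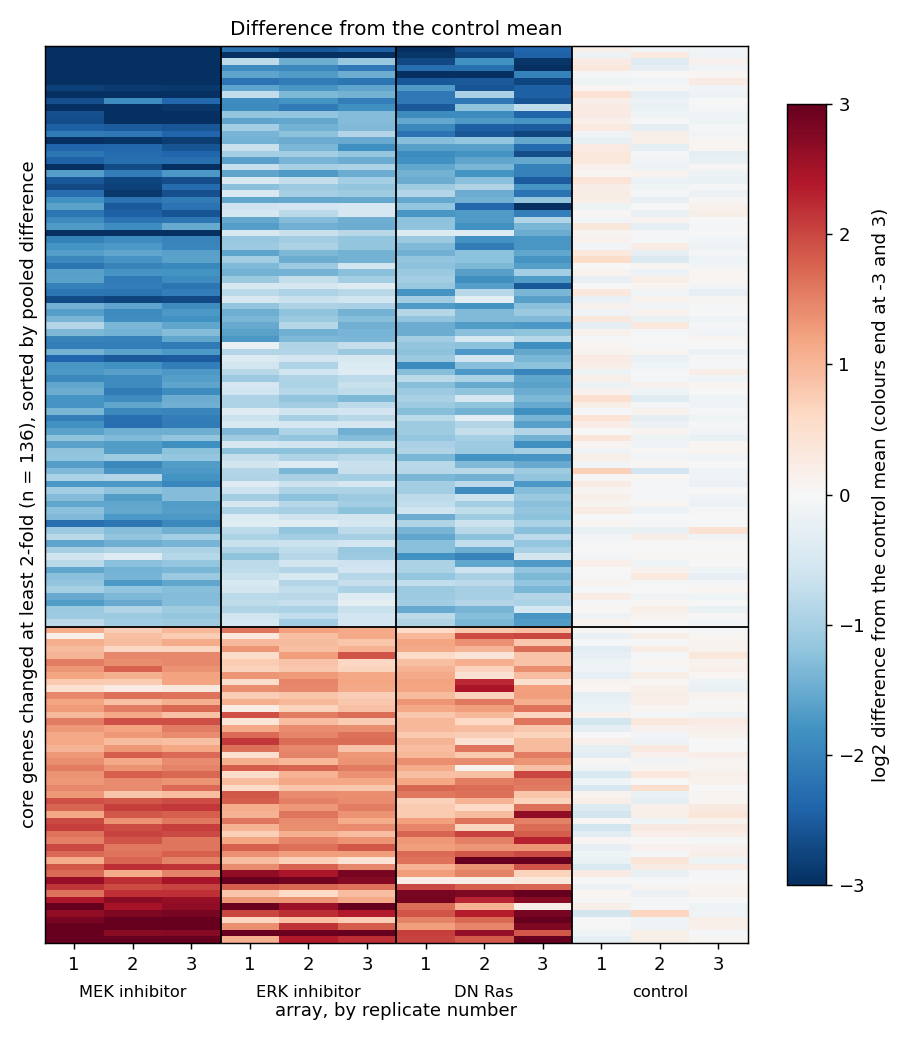
Log2 difference from the control mean for the 136 core genes that passed limma's pooled test with at least a 2-fold difference as read (rows, sorted by pooled difference, 88 lower above the line and 48 higher below it) on each of the 12 arrays (columns, by group and replicate number). Blue is below and red above the control mean, and the MEK inhibitor arrays have the darkest colours over most of the lower genes.

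The largest differences below control were those of TGM2, tissue transglutaminase, an enzyme that crosslinks proteins, and of EGR1, an immediate-early zinc finger transcription factor. TGM2 read 5.30, 4.59 and 4.73 with the MEK inhibitor, 8.75, 8.46 and 8.55 with the ERK inhibitor and 7.81, 8.42 and 8.62 with dominant-negative Ras, against 11.18, 10.92 and 10.93 in control cells. Its pooled difference was -3.76 ± 0.16 (SE), and the MEK inhibitor arrays lay far below the other inhibited arrays. Further, dimmer TGM2 probes met the rule too but differed less, by -1.99 and -1.70, so the size given is that of the brightest probe. EGR1 read 5.31, 5.10 and 5.39 with the MEK inhibitor, 5.20, 5.41 and 5.10 with the ERK inhibitor and 5.55, 5.73 and 6.04 with dominant-negative Ras, against 8.29, 8.77 and 8.35 in control cells. It had the widest gap of all core genes, 2.26, with a pooled difference of -3.05 ± 0.13 (SE), and the MEK and ERK inhibitor arrays overlapped while dominant-negative Ras lay slightly above both.

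FOSL1, an AP-1 subunit of the FOS family, read 4.55, 4.28 and 4.42 with the MEK inhibitor, 6.14, 6.10 and 5.89 with the ERK inhibitor and 5.78, 5.77 and 4.94 with dominant-negative Ras, against 8.39, 7.80 and 7.93 in control cells. It was detected on no MEK inhibitor array, so its pooled difference is given as at least 5.96-fold lower. MYEOV, an overexpressed gene of myeloma, read 4.17, 4.48 and 4.29 with the MEK inhibitor, 8.12, 7.44 and 7.79 with the ERK inhibitor and 6.21, 7.09 and 6.01 with dominant-negative Ras, against 9.16, 8.54 and 9.05 in control cells, at least 5.89-fold lower, and was likewise detected on no MEK inhibitor array. The 3 inhibited groups of MYEOV did not overlap one another, and the ERK inhibitor arrays were the nearest to control. FGFBP1, which carries fibroblast growth factors away from the matrix, read 6.35 to 8.68 on the 9 inhibited arrays (median 7.14), against 10.11, 10.16 and 10.23 on the control arrays. HSD3B1, a steroid dehydrogenase, read 4.23 to 5.35 on the 9 inhibited arrays (median 4.91), against 7.30, 7.37 and 7.70 on the control arrays. MIA, a small secreted protein first found in melanoma, read 4.57 to 5.41 on the 9 inhibited arrays (median 5.05), against 7.37, 7.03 and 7.19 on the control arrays. Of these, HSD3B1 had a gap of 1.95 and MIA one of 1.61, each wide against the median of the core genes. HSD3B1 was detected on no MEK inhibitor array, so its readings there were not above background. CALB2, the calcium-binding protein calretinin, read 4.68 to 6.95 on the 9 inhibited arrays (median 5.59), against 7.95, 7.49 and 7.66 on the control arrays. C6orf15 read 7.50 to 9.73 on the 9 inhibited arrays (median 9.03), against 11.16, 10.79 and 10.78 on the control arrays. CALB2 was detected on no MEK inhibitor array, and its pooled difference was at least 4.29-fold lower.

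**Figure D2:**
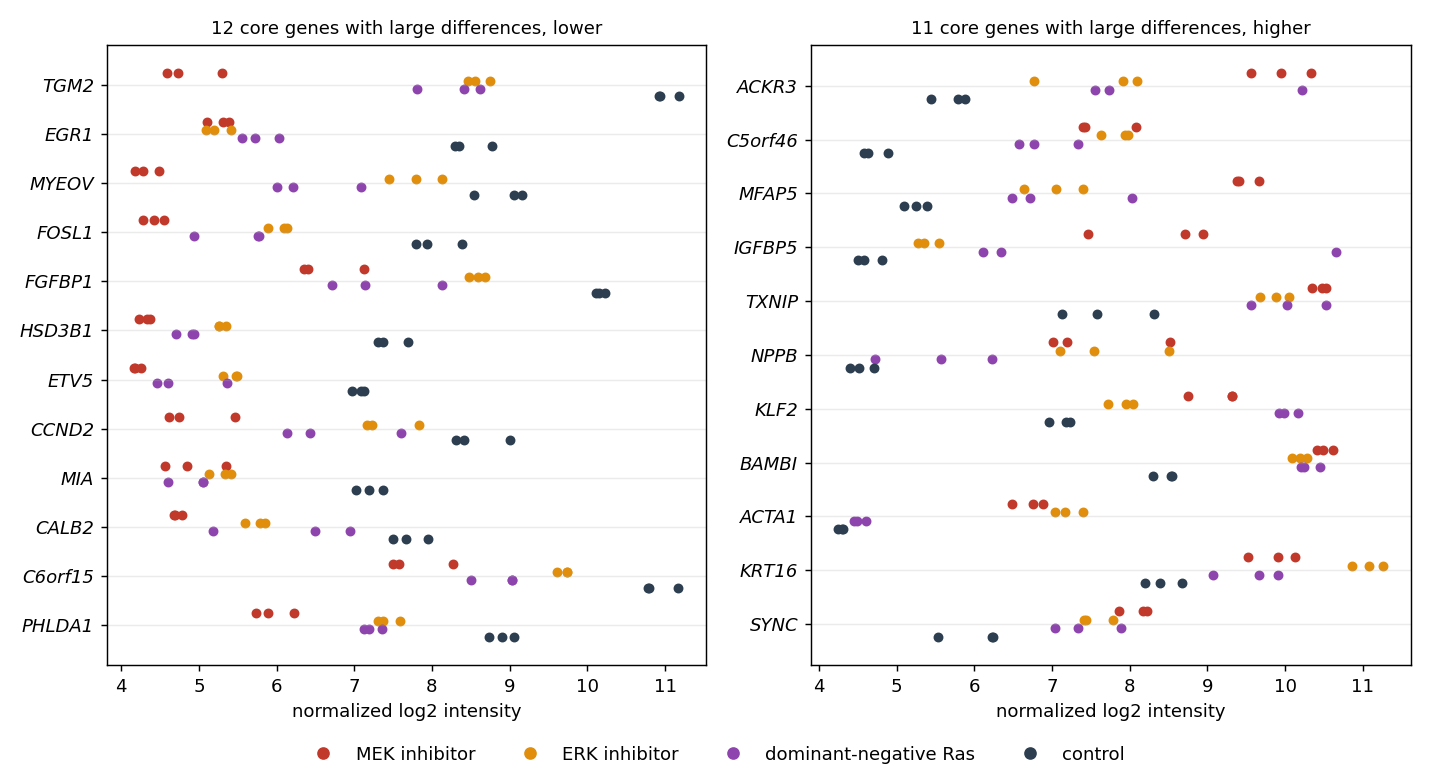
Normalized log2 intensity on each of the 12 arrays (points, coloured by group) for the 12 core genes with the largest pooled difference below control (left) and for 11 of the 12 with the largest above control (right). For EGR1 the 9 inhibited arrays lie between 5.10 and 6.04 and the control arrays between 8.29 and 8.77, while for NPPB the nearest inhibited and control arrays are 0.01 apart.

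Most transcripts that are used as readouts of MEK and ERK activity were core genes. Of 9 measured, 7 were core genes below control and none above it, with a median pooled difference of -1.45. ETV5 and ETV4, transcription factors of the ETS family, and DUSP6 and SPRY4, which damp ERK signalling, were among them. ETV5 read 4.26, 4.18 and 4.16 with the MEK inhibitor, 5.49, 5.30 and 5.47 with the ERK inhibitor and 5.36, 4.47 and 4.60 with dominant-negative Ras, against 7.12, 7.09 and 6.97 in control cells. It was at least 4.09-fold lower and was detected on no MEK inhibitor array. ETV4 read 4.25 to 4.90 on the 9 inhibited arrays (median 4.63), against 6.38, 6.43 and 6.17 on the control arrays, at least 3.04-fold lower. DUSP6, the phosphatase of ERK, read 4.31 to 5.08 on the 9 inhibited arrays (median 4.68), against 6.21, 5.93 and 6.16 on the control arrays, at least 2.44-fold lower. SPRY4 was detected on no inhibited array and on all 3 control arrays, at least 2.09-fold lower, and read 4.22 to 4.65 on the 9 inhibited arrays (median 4.32), against 6.19, 5.63 and 5.81 on the control arrays. Readings of SPRY4 on inhibited arrays were thus not above background, and no order is read from them.

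PHLDA1, an early-response protein, read 6.23, 5.89 and 5.73 with the MEK inhibitor, 7.31, 7.37 and 7.59 with the ERK inhibitor and 7.36, 7.19 and 7.12 with dominant-negative Ras, against 9.06, 8.90 and 8.73 in control cells. EPHA2, an ephrin receptor, read 4.99, 5.10 and 5.33 with the MEK inhibitor, 6.89, 6.90 and 6.74 with the ERK inhibitor and 6.37, 6.62 and 6.31 with dominant-negative Ras, against 7.32, 7.22 and 7.26 in control cells. In both genes every MEK inhibitor array lay below every other inhibited array. SPRY2 passed limma's pooled test with a difference of -1.11 ± 0.11 (SE) but overlapped: it read 6.51, 6.19 and 6.26 with the MEK inhibitor, 8.18, 7.89 and 7.84 with the ERK inhibitor and 7.12, 7.07 and 6.81 with dominant-negative Ras, against 8.30, 8.12 and 8.20 in control cells. The highest ERK inhibitor reading, replicate 1, lay above the lowest control array. EPHA4 was the other member outside the rule, at 0.56 ± 0.20 (SE), and did not pass.

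Of 14 measured feedback inhibitors of ERK, 7 were core genes below control and 1 above it, IL17RD, which left the core under median scaling. DUSP5, a nuclear phosphatase of ERK, read 5.40, 5.57 and 5.57 with the MEK inhibitor, 6.19, 6.42 and 6.33 with the ERK inhibitor and 6.01, 6.23 and 6.28 with dominant-negative Ras, against 8.15, 7.72 and 7.61 in control cells, with a pooled difference of -1.82 ± 0.11 (SE). SPRED1, an inhibitor of RAF activation, read 5.04, 5.41 and 5.10 with the MEK inhibitor, 7.41, 7.12 and 7.16 with the ERK inhibitor and 6.54, 6.74 and 6.08 with dominant-negative Ras, against 8.24, 7.94 and 8.13 in control cells, with a pooled difference of -1.81 ± 0.13 (SE). In SPRED1 the inhibited groups did not overlap, in the order MEK inhibitor, dominant-negative Ras and ERK inhibitor from lowest to highest. Among 18 measured kinases and adaptors of the cascade, 2 were core genes, beside 10.5% of all genes. MKNK1, a kinase that ERK activates, was higher at 0.48 ± 0.12 (SE). The adaptor SHC1 was lower at -0.41 ± 0.10 (SE) with a gap of 0.00, and a second, dimmer SHC1 probe overlapped control at -0.04. Both genes left the core under median scaling of the arrays.

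Immediate-early genes went both ways. Of 22 measured, 4 were core genes below control (EGR1, FOSL1, MAFF and IER5) and 4 above it (KLF2, JUN, ATF3 and KLF10), and the list's median pooled difference was -0.01. MAFF, a small MAF protein that pairs with other basic leucine zipper factors, read 5.85 to 7.47 on the 9 inhibited arrays (median 6.67), against 8.02, 8.12 and 7.96 on the control arrays. KLF2, a Krüppel-like factor, read 8.75, 9.32 and 9.32 with the MEK inhibitor, 7.95, 7.72 and 8.04 with the ERK inhibitor and 9.98, 9.92 and 10.17 with dominant-negative Ras, against 7.18, 6.95 and 7.24 in control cells. Its 3 inhibited groups did not overlap, and the dominant-negative Ras arrays were the highest.

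Cyclins D1 and D2, which drive cells through G1, lay below control. CCND1, cyclin D1, read 9.58, 9.12 and 9.30 with the MEK inhibitor, 10.93, 10.89 and 10.88 with the ERK inhibitor and 10.32, 10.52 and 9.77 with dominant-negative Ras, against 11.60, 11.21 and 11.36 in control cells, with a pooled difference of -1.25 ± 0.14 (SE). CCND2, cyclin D2, averaged 4.94 ± 0.46 with the MEK inhibitor, 7.41 ± 0.37 with the ERK inhibitor and 6.72 ± 0.77 with dominant-negative Ras, against 8.57 ± 0.37 in control cells (SD, n = 3 each), with a pooled difference of -2.22 ± 0.26 (SE). CDKN2B, the inhibitor p15 of their partner kinases, was above control and read 8.88 to 9.82 on the 9 inhibited arrays (median 9.28), against 8.46, 8.76 and 8.59 on the control arrays. These were the 3 core genes among 18 measured G1 cyclins, CDKs and CDK inhibitors. None of 29 measured DNA replication genes was a core gene. By limma's pooled test 2 of the 29 were lower, beside 8.62% of all genes, and none was higher, beside 7.93%. Of 36 measured G2/M genes, 1 was a core gene, CENPA at 0.33 ± 0.09 (SE), which left the core under median scaling.

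Of 17 measured neutrophil chemokines and NF-kB cytokines, 3 were core genes, all lower, and the rest overlapped control. By limma's pooled test 7 of the 17 were lower, beside 8.62% of all genes, and 1 was higher, CCL5, a chemokine that draws T cells, at 0.42. Of the 17, 14 passed the F-test among the inhibited groups, beside 15.3% of all genes, so the pooled difference averages unlike group values. The promoters of the 3 core genes, with the AP-1 element, are printed above. CXCL8, interleukin-8, which draws neutrophils, read 5.52, 5.31 and 5.39 with the MEK inhibitor, 8.17, 7.99 and 7.82 with the ERK inhibitor and 8.26, 8.28 and 7.18 with dominant-negative Ras, against 8.75, 8.59 and 8.64 in control cells. The MEK inhibitor arrays of CXCL8 lay more than 1 log2 unit below every other inhibited array, and the nearest of the others lay 0.32 below the lowest control array. IL1A, the alarm cytokine interleukin-1 alpha, read 5.39, 5.37 and 5.48 with the MEK inhibitor, 6.75, 6.64 and 6.73 with the ERK inhibitor and 5.80, 6.73 and 6.19 with dominant-negative Ras, against 7.89, 7.48 and 7.33 in control cells. IL1RN, the antagonist of its receptor, read 4.81, 4.31 and 4.53 with the MEK inhibitor, 5.31, 5.71 and 5.40 with the ERK inhibitor and 5.37, 4.59 and 4.74 with dominant-negative Ras, against 6.17, 6.61 and 6.48 in control cells, at least 2.54-fold lower. IL1RN was detected on no MEK inhibitor array.

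Of 15 measured plasminogen activators, matrix proteases and inhibitors, PLAT, PLAU and TIMP1 were core genes below control, and TIMP3 was above it. PLAT, the tissue plasminogen activator, read 4.58 to 5.62 on the 9 inhibited arrays (median 5.26), against 7.01, 6.55 and 6.85 on the control arrays. PLAU, urokinase, read 9.62 to 10.84 on the 9 inhibited arrays (median 10.05), against 10.91, 10.96 and 10.96 on the control arrays, with a gap of 0.06, and left the core under median scaling. TIMP1, an inhibitor of metalloproteases, read 9.09 to 10.43 on the 9 inhibited arrays (median 9.84), against 11.02, 10.81 and 10.99 on the control arrays, and TIMP3, another such inhibitor, lay at 1.43 ± 0.12 (SE). Of 5 measured kallikreins, 3 were core genes below control. KLK7, which cleaves junctions between outer skin cells, had a pooled difference of -1.62 ± 0.26 (SE), KLK6 one of -1.04 ± 0.14 (SE), and KLK8 was at least 2.43-fold lower. ITGA2, a collagen-binding integrin subunit, read 5.43, 5.23 and 5.32 with the MEK inhibitor, 7.50, 7.27 and 6.95 with the ERK inhibitor and 6.50, 6.71 and 5.47 with dominant-negative Ras, against 8.35, 7.79 and 7.79 in control cells. NT5E, the ectoenzyme CD73 that makes adenosine, read 5.98 to 7.62 on the 9 inhibited arrays (median 6.75), against 8.96, 8.61 and 8.35 on the control arrays. SCNN1A, which forms part of the sodium channel ENaC, read 6.65 to 7.95 on the 9 inhibited arrays (median 7.34), against 8.77, 8.97 and 8.84 on the control arrays. GDF15, a stress cytokine, read 4.27 to 6.14 on the 9 inhibited arrays (median 4.88), against 6.92, 7.20 and 6.95 on the control arrays.

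Many lipid synthesis genes lay below control. Of 20 measured genes of cholesterol synthesis, 11 were core genes below control and none above it, with pooled differences of -1.06 to -0.30, and the list's median was -0.47. Under median scaling 7 of the 20 were core genes below control. MVD, a decarboxylase of the mevalonate pathway, read 8.08, 7.71 and 7.87 with the MEK inhibitor, 7.94, 7.84 and 7.88 with the ERK inhibitor and 7.32, 7.65 and 8.10 with dominant-negative Ras, against 8.79, 9.09 and 8.78 in control cells. DHCR7, the last reductase of the pathway, read 8.73 to 9.54 on the 9 inhibited arrays (median 9.07), against 10.18, 10.22 and 9.90 on the control arrays. FDPS, which makes farnesyl pyrophosphate, lay at -0.78 ± 0.13 (SE). Of 15 measured genes of fatty acid synthesis, 6 were core genes below control and 1 above it, ELOVL5, which left the core under median scaling. ELOVL6, a fatty acid elongase, read 7.06 to 7.76 on the 9 inhibited arrays (median 7.55), against 8.55, 8.53 and 8.51 on the control arrays. SCD, the desaturase that makes oleate, averaged 10.36 ± 0.23 with the MEK inhibitor, 9.92 ± 0.18 with the ERK inhibitor and 9.51 ± 0.79 with dominant-negative Ras, against 10.97 ± 0.07 in control cells (SD, n = 3 each), and FASN, fatty acid synthase, lay at -0.74 ± 0.12 (SE). No core gene of cholesterol synthesis, and of fatty acid synthesis only FASN, passed the F-test among the inhibited groups. Over all core genes the share that passed was 17.7%.

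Genes of ribosome building showed smaller differences. Of 30 measured, 11 were core genes below control and none above it, at -0.63 to -0.25. None of the 30 passed the F-test, beside 15.3% of all genes. Under median scaling the core held 4 of the 30 and not 11, and 4 and not 9 passed limma's pooled test as lower. BOP1, a factor of the large subunit, read 8.91 to 9.37 on the 9 inhibited arrays (median 9.24), against 10.02, 9.62 and 9.79 on the control arrays. HEATR1, needed for ribosomal RNA transcription, read 7.96 to 8.28 on the 9 inhibited arrays (median 8.12), against 8.76, 8.64 and 8.49 on the control arrays. Of 19 measured glycolysis genes, 4 were core genes below control, GPI at -0.59 ± 0.11 (SE), PFKL at -0.57 ± 0.10 (SE), the glucose transporter SLC2A1 at -0.42 ± 0.10 (SE) and GAPDH at -0.16 ± 0.09 (SE). GAPDH did not pass limma's pooled test, and SLC2A1 left the core under median scaling. Further, dimmer GAPDH probes overlapped control at -0.12 and 0.08. In the other direction, SLC7A5 and SLC3A2, the 2 chains of an amino acid transporter, read 11.57 to 11.90 on the 9 inhibited arrays (median 11.76), against 11.24, 11.08 and 11.21 on the control arrays for SLC7A5 and 10.53 to 11.20 on the 9 inhibited arrays (median 10.87), against 10.31, 10.09 and 10.06 on the control arrays for SLC3A2. SLC3A2 left the core under median scaling.

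**Figure D3:**
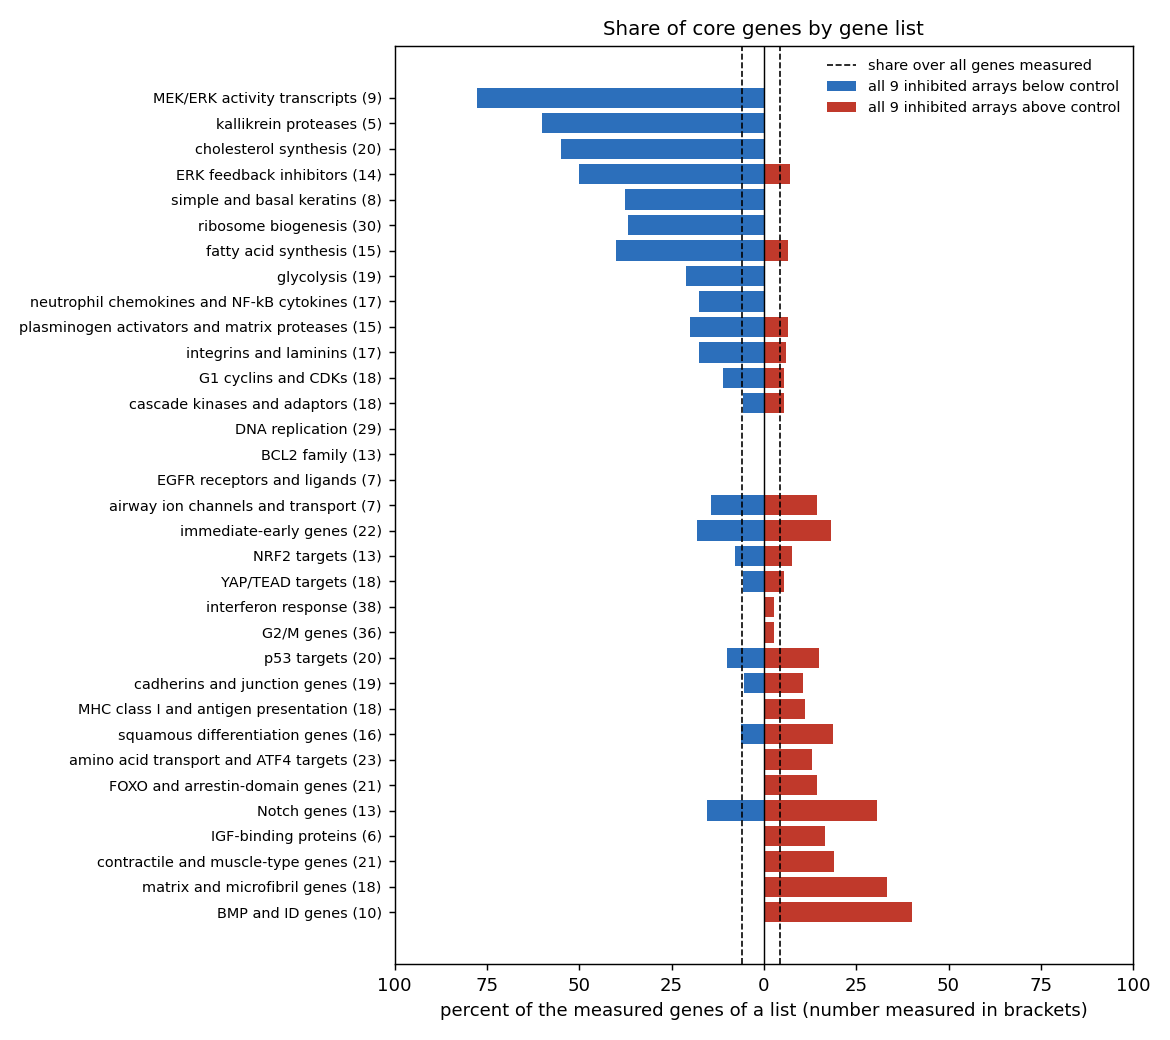
Percent of the measured genes of each list that were core genes below control (blue, to the left) or above control (red, to the right), for lists with at least 5 measured genes, whose number stands in brackets. Dashed lines mark the shares over all 10532 genes, 5.98% below and 4.49% above control.

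Above control, the largest pooled difference was that of ACKR3, a receptor that takes up chemokines. It read 9.56, 9.95 and 10.34 with the MEK inhibitor, 6.76, 8.09 and 7.91 with the ERK inhibitor and 7.73, 7.55 and 10.21 with dominant-negative Ras, against 5.44, 5.88 and 5.79 in control cells, at 2.98 ± 0.42 (SE). The MEK inhibitor arrays and dominant-negative Ras replicate 3 were the highest. C5orf46 read 6.57 to 8.09 on the 9 inhibited arrays (median 7.43), against 4.58, 4.89 and 4.64 on the control arrays and had the widest gap above control, 1.69. STX11, a syntaxin of vesicle fusion, read 6.71 to 7.45 on the 9 inhibited arrays (median 7.06), against 5.21, 5.59 and 5.58 on the control arrays, and SYNC, a protein of intermediate filaments, read 7.03 to 8.22 on the 9 inhibited arrays (median 7.78), against 5.54, 6.23 and 6.23 on the control arrays.

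ID proteins, which lack a DNA-binding part and block basic helix-loop-helix factors, and BAMBI, a decoy receptor of the TGF-beta family, lay above control. Of 10 measured BMP and ID genes, 4 were core genes above control and none below it, with a list median of 0.74. BAMBI read 10.61, 10.42 and 10.49 with the MEK inhibitor, 10.29, 10.19 and 10.08 with the ERK inhibitor and 10.45, 10.24 and 10.20 with dominant-negative Ras, against 8.30, 8.55 and 8.54 in control cells, at 1.87 ± 0.10 (SE). ID3 read 10.60, 10.54 and 10.71 with the MEK inhibitor, 10.28, 10.16 and 10.16 with the ERK inhibitor and 10.60, 10.77 and 10.88 with dominant-negative Ras, against 8.78, 8.86 and 9.07 in control cells, at 1.62 ± 0.10 (SE). ID4 read 6.45 to 7.57 on the 9 inhibited arrays (median 6.77), against 5.33, 5.26 and 5.20 on the control arrays. ID2 read 5.85, 6.47 and 6.23 with the MEK inhibitor, 5.66, 5.45 and 5.17 with the ERK inhibitor and 6.35, 7.76 and 8.32 with dominant-negative Ras, against 4.54, 5.09 and 4.57 in control cells. In BAMBI the dominant-negative Ras arrays overlapped both other inhibited groups, whereas in ID2 the dominant-negative Ras arrays reached highest and were spread widely.

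TXNIP, an arrestin-domain protein that restrains glucose uptake, read 10.34, 10.48 and 10.52 with the MEK inhibitor, 9.68, 9.88 and 10.06 with the ERK inhibitor and 9.57, 10.02 and 10.53 with dominant-negative Ras, against 7.13, 8.32 and 7.58 in control cells, at 2.44 ± 0.21 (SE). ARRDC4, a close relative of TXNIP, read 5.59 to 6.39 on the 9 inhibited arrays (median 5.90), against 4.44, 5.04 and 4.73 on the control arrays. FOXO1, a forkhead transcription factor, was at least 1.46-fold higher and was detected on all 9 inhibited arrays and on no control array. These were the 3 core genes among 21 measured FOXO and arrestin-domain genes. None of the 3 passed the F-test, beside 17.7% of all core genes, and 3 genes are too few to read anything from this. By limma's pooled test 7 of the 21 were higher and 3 lower, beside 7.93% and 8.62% of all genes.

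Of 18 measured matrix genes, 6 were core genes, all above control, and the list's median pooled difference was 0.55. By limma's pooled test 10 of the 18 were higher and 1 lower, beside 7.93% and 8.62% of all genes. The lower one, at -1.38, overlapped control by 0.02. MFAP5, a microfibril protein, read 9.39, 9.41 and 9.66 with the MEK inhibitor, 6.63, 7.40 and 7.06 with the ERK inhibitor and 6.49, 6.71 and 8.03 with dominant-negative Ras, against 5.24, 5.10 and 5.38 in control cells. Here the MEK inhibitor arrays lay above all other arrays. COL5A1, a chain of fibrillar collagen, read 9.56 to 10.28 on the 9 inhibited arrays (median 9.96), against 8.46, 8.89 and 8.91 on the control arrays. COL18A1, a basement membrane collagen, read 8.81 to 9.42 on the 9 inhibited arrays (median 9.13), against 8.14, 8.40 and 8.29 on the control arrays. FN1, fibronectin, read 5.09 to 6.38 on the 9 inhibited arrays (median 5.59), against 4.93, 4.59 and 4.74 on the control arrays. A second, dimmer FN1 probe overlapped control at 0.51. Of the fibroblast markers examined, 5 were among the measured genes, and by limma's pooled test 2 of these were higher and 1 lower. COL1A1 was the only core gene among them, above control at 0.65 ± 0.10 (SE). Markers of fibroblasts stood at summed linear levels of 489 to 571 with the MEK inhibitor, 473 to 495 with the ERK inhibitor and 476 to 813 with dominant-negative Ras, against 444 to 514 in control cells. Of the 12 markers, 3 were detected on all arrays, and COL3A1, DCN, PDGFRA and THY1 on none. Their part in the matrix values was not tested.

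Contractile and muscle-type genes gave 4 core genes of 21 measured and all lay above control. By limma's pooled test 8 of the 21 were higher and 2 lower, beside 7.93% and 8.62% of all genes. The F-test among the inhibited groups was passed by 13 of the 21, beside 15.3% of all genes. Of the 21, 2 were core genes under median scaling and 2 with the authors' processed values. ACTA1, skeletal muscle actin, read 6.89, 6.49 and 6.76 with the MEK inhibitor, 7.40, 7.16 and 7.04 with the ERK inhibitor and 4.49, 4.45 and 4.60 with dominant-negative Ras, against 4.29, 4.24 and 4.30 in control cells. It was detected on all arrays of both inhibitors and on none of the dominant-negative Ras or control arrays, so its place among the core genes rests on 6 readings not above background, and it left the core with the authors' processed values. NPPB, a natriuretic peptide, read 8.51, 7.01 and 7.20 with the MEK inhibitor, 8.51, 7.10 and 7.54 with the ERK inhibitor and 6.22, 5.58 and 4.72 with dominant-negative Ras, against 4.71, 4.51 and 4.40 in control cells. Its gap was 0.01, and it left the core under median scaling and with the authors' processed values. CALD1, caldesmon, read 10.63, 10.17 and 10.38 with the MEK inhibitor, 10.48, 10.41 and 10.46 with the ERK inhibitor and 9.51, 9.50 and 9.45 with dominant-negative Ras, against 9.39, 9.07 and 9.36 in control cells, with dominant-negative Ras close to control, and left the core under median scaling. TAGLN2, a transgelin, read 11.20 to 11.68 on the 9 inhibited arrays (median 11.53), against 10.70, 10.82 and 10.86 on the control arrays. IGFBP5, an IGF-binding protein, read 7.46, 8.71 and 8.94 with the MEK inhibitor, 5.27, 5.54 and 5.35 with the ERK inhibitor and 6.11, 6.34 and 10.65 with dominant-negative Ras, against 4.57, 4.50 and 4.81 in control cells, with dominant-negative Ras replicate 3 far above the other arrays of its group, and it left the core with the authors' processed values.

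Of 8 measured keratins of simple and basal epithelium, 3 were core genes below control, and of 16 measured genes of squamous differentiation, 3 were above it and 1 below. KRT18 lay at -0.86 ± 0.11 (SE), KRT8 at -0.56 ± 0.12 (SE) and KRT15 was at least 1.56-fold lower. KRT18 left the core under median scaling, and a second, dimmer KRT18 probe overlapped control at -0.07. The summed linear level of the 10 epithelial markers, which include KRT8 and KRT18, was 11925 to 13100 with the MEK inhibitor, 15999 to 17084 with the ERK inhibitor and 13087 to 15340 with dominant-negative Ras, against 15533 to 17565 in control cells, and its part in these values was not tested. KRT16, a keratin of stressed and wounded epithelium, read 10.13, 9.52 and 9.91 with the MEK inhibitor, 11.09, 10.86 and 11.26 with the ERK inhibitor and 9.66, 9.91 and 9.08 with dominant-negative Ras, against 8.67, 8.20 and 8.38 in control cells. TGM1, which crosslinks the cornified envelope, read 7.84, 8.01 and 7.75 with the MEK inhibitor, 8.80, 8.40 and 8.55 with the ERK inhibitor and 7.68, 7.87 and 7.50 with dominant-negative Ras, against 6.99, 6.84 and 6.77 in control cells. In both genes every ERK inhibitor array lay above every other array. FLG, filaggrin, read 5.50 to 7.28 on the 9 inhibited arrays (median 6.20), against 5.13, 5.06 and 4.88 on the control arrays. PPL, periplakin, was the core gene of this list below control, at -0.45 ± 0.09 (SE), and left the core under median scaling. SNAI2, a repressor of epithelial genes, read 7.48 to 8.80 on the 9 inhibited arrays (median 8.30), against 6.65, 7.12 and 7.19 on the control arrays, and CLDN3, a claudin of tight junctions, read 6.01 to 6.92 on the 9 inhibited arrays (median 6.79), against 7.84, 7.87 and 7.70 on the control arrays.

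Notch genes were split. Of 13 measured, HES2 and NOTCH1 were core genes below control, at -1.44 ± 0.19 (SE) and -0.67 ± 0.16 (SE), and 4 were above it, with JAG2 at 0.83 ± 0.13 (SE) and HEYL at 0.58 ± 0.10 (SE). A second, dimmer JAG2 probe overlapped control at 0.37. HES2 is a repressor of the HES family, JAG2 a ligand and NOTCH1 a receptor. Interferon response genes gave 1 core gene of 38 measured, IRF9, at 0.71 ± 0.14 (SE). Of the 38, 11 passed limma's pooled test as higher, beside 7.93% of all genes. Of these 38 genes, 28 passed the F-test among the inhibited groups, beside 15.3% of all genes. HLA-B and TAP2 were the core genes among 18 measured MHC class I and antigen presentation genes, beside 10.5% of all genes. They lay at 0.44 ± 0.12 (SE) and 0.44 ± 0.12 (SE), and a second, dimmer TAP2 probe overlapped control at 0.34. HEYL, IRF9, HLA-B and TAP2 left the core under median scaling.

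Differences among the 3 inhibited groups do not enter the pooled contrast and were tested. The rule does bound the spread among the 9 inhibited arrays, since all must lie beyond control. By limma's F-test, 195 core genes differed among the inhibited groups (17.7%), against 1614 of all genes (15.3%). The shares, over the core genes of each setting and all genes, were 26% and 15.6% under median scaling of the arrays, and 13.7% and 6.23% with no filter on dim probes, so how far the core stood from all genes depended on the setting. Among core genes below control, 100 were lower with the MEK inhibitor than with the ERK inhibitor and 5 higher, so 15.9% were called lower beside 6.69% of all genes. Among those above control, 34 were higher with the MEK inhibitor than with the ERK inhibitor and 14 lower, so 7.19% were called higher beside 3.52% of all genes. The difference from the background was not tested in either case.

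The other 2 pairs of inhibited groups were compared in the same way. Of the core genes below control, 51 were higher with dominant-negative Ras than with the MEK inhibitor and 4 lower, and 8.10% called higher stands beside 2.49% of all genes. Of the core genes below control, 55 were lower with dominant-negative Ras than with the ERK inhibitor and 12 higher, and 8.73% called lower stands beside 6.09% of all genes. Of the core genes above control, 24 were lower with dominant-negative Ras than with the MEK inhibitor and 5 higher, and 5.07% called lower stands beside 1.91% of all genes. Of the same genes, 30 were lower with dominant-negative Ras than with the ERK inhibitor and 22 higher, and 6.34% called lower and 4.65% called higher stand beside 6.09% and 4.79% of all genes. Against control, the MEK inhibitor test called 307 core genes above control and 396 below it, beside 7.11% and 8.86% of all genes. The ERK inhibitor test called 236 and 330, beside 5.92% and 5.48%, and the dominant-negative Ras test 296 and 363, beside 5.81% and 6.45%. These 3 tests share the control arrays with the rule, and nothing is read from their counts.

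The 6 smallest p-values of the F-test among core genes belonged to ACTA1, TGM2, EPHA2, MYEOV, KLF2 and FUCA1. TGM2 differed by -3.71 ± 0.20 (SE, limma adjusted p = 1.46e-08) between the MEK and ERK inhibitors, and it was detected on 1 of the 3 MEK inhibitor arrays. MYEOV, detected on no MEK inhibitor array, was at least 7.63-fold lower with the MEK inhibitor in the same contrast (limma adjusted p = 2.84e-07). EPHA2 differed by -1.70 ± 0.12 (SE, limma adjusted p = 4.01e-07) there, and FUCA1, a lysosomal fucosidase, by -1.48 ± 0.13 (SE, limma adjusted p = 2.74e-06). CXCL8 differed by -2.59 ± 0.22 (SE, limma adjusted p = 1.80e-06) between the inhibitors and by -0.09 ± 0.22 (SE, limma adjusted p = 0.83) between dominant-negative Ras and the ERK inhibitor. MFAP5 was higher with the MEK inhibitor, by 2.45 ± 0.29 (SE, limma adjusted p = 5.58e-05), whereas KRT16 was lower with it than with the ERK inhibitor, by -1.22 ± 0.20 (SE, limma adjusted p = 0.00103). ACTA1 was lower with dominant-negative Ras than with the ERK inhibitor, at least 5.33-fold (limma adjusted p = 7.96e-09), and was detected on no dominant-negative Ras array.

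**Figure D4:**
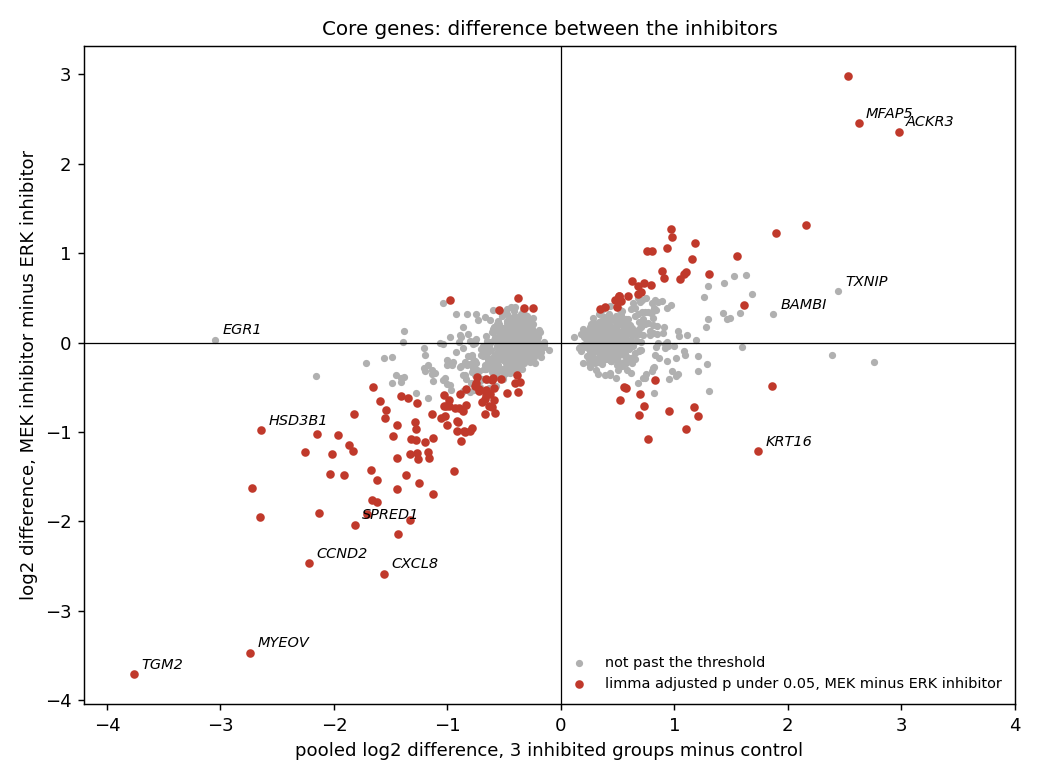
Log2 difference of the MEK inhibitor minus the ERK inhibitor (vertical axis) against the pooled log2 difference of the 3 inhibited groups minus control (horizontal axis) for the 1103 core genes, with those past limma's adjusted p of 0.05 for the vertical contrast in red. Among core genes below control, 100 red points lie below the horizontal line and 5 above it.

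Other core genes of large pooled difference did not pass the F-test. The 6 with the largest p of the F-test among the 100 largest pooled differences were SH2D5, CRIP2, ARRDC4, HSD17B2, SPRY4 and MME. MME, the peptidase neprilysin, read 5.60, 5.53 and 5.65 with the MEK inhibitor, 5.34, 5.50 and 5.56 with the ERK inhibitor and 5.45, 5.70 and 5.75 with dominant-negative Ras, against 7.08, 6.91 and 6.85 in control cells, and its MEK minus ERK inhibitor difference was 0.13 ± 0.12 (SE, limma adjusted p = 0.574). CRIP2, a LIM protein, averaged 8.15 ± 0.39 with the MEK inhibitor, 7.89 ± 0.29 with the ERK inhibitor and 8.02 ± 1.03 with dominant-negative Ras, against 6.55 ± 0.49 in control cells (SD, n = 3 each), with dominant-negative Ras replicate 3 the highest. SH2D5 and HSD17B2, a steroid dehydrogenase, were at least 1.93-fold and at least 2.52-fold lower. SH2D5 was detected on no inhibited array. A p that misses the threshold does not show that groups act alike, and readings near background have little room to differ.

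At the edge of the rule, ATP1B1, B3GLCT and AP5M1 were the core genes above control with the smallest gaps, each 0.00 after rounding, with pooled differences of 0.49, 0.30 and 0.34. LMBRD2, ATP2B4 and ZNF200 lay just outside it at 0.49, 0.75 and 0.31. Below control, TMEM201, DAAM1 and DEXI lay just inside at -0.42, -0.39 and -0.25, and HACD3, UQCR10 and NDUFAF2 just outside at -0.15, -0.32 and -0.32.

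Of 172 genes that passed limma's pooled test with at least a 2-fold difference as read, 136 were core genes and 36 overlapped. In 5 of the 36 the group differences had unlike signs. The genes of this kind named here were chosen after their values were seen. ADAM8, a membrane metalloprotease, read 6.13, 5.17 and 5.01 with the MEK inhibitor, 8.24, 7.74 and 7.81 with the ERK inhibitor and 6.60, 6.79 and 5.50 with dominant-negative Ras, against 8.33, 7.89 and 8.28 in control cells. CXCL10, an interferon-induced chemokine, read 7.24, 6.42 and 6.14 with the MEK inhibitor, 9.18, 9.09 and 9.16 with the ERK inhibitor and 6.39, 7.08 and 6.27 with dominant-negative Ras, against 6.52, 6.27 and 6.26 in control cells, and the ERK inhibitor arrays alone lay clear of control. KRT14, a basal keratin, read 5.05, 4.87 and 4.55 with the MEK inhibitor, 7.34, 6.92 and 7.19 with the ERK inhibitor and 5.11, 5.63 and 4.83 with dominant-negative Ras, against 4.57, 4.55 and 4.65 in control cells. It was detected on no control array and on 2 of the MEK inhibitor arrays, and its pooled difference was at least 1.83-fold higher.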

How the data were processed

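RNA of 12 cultures was hybridised to Illumina bead arrays, 1 array per sample, in 4 groups of 3 taken from the labels. The deposited table holds bead intensity values of 47322 probes, not normalized, with a detection p-value for each, and the submitters' processing notes name GenomeStudio. The authors also deposited processed intensities for 47317 probes in a second table, used as an alternative.

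Intensities were corrected for background, quantile normalized and put on the log2 scale with limma 3.58.1 (neqc, offset 16) in R 4.3.3. This step forces 1 distribution on all arrays, so a shift shared by most genes is lost. Probes with a detection p under 0.01 on all 3 arrays of any group were kept, 17099 of them, 13885 with 1 gene symbol in the platform annotation, and the brightest probe stood for a gene, which left 10532. The annotation can be old. Of 49 further probes of named genes, 45 had the same sign and none passed the test in the opposite direction, but only 21 met the rule on their own and 28 overlapped control. Among those that overlapped were further probes of CALD1, FN1, GAPDH, HES2, JAG2, KRT16, TAGLN2 and TAP2.

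Genes were tested with lmFit and eBayes of limma on 4 group means, two-sided, with Benjamini-Hochberg adjustment over all genes and a threshold of 0.05: the pooled contrast, each inhibited group against control (these share the control arrays), the F-test among the inhibited groups, and the contrasts between them. Spread here means that between 3 experiments with 1 cell line. The median SD after moderation was 0.169 on the log2 scale, and 3 arrays a group limit the precision. Where a group on the dimmer side had no detected array, the difference is a lower bound, from the brighter side's mean against, per array, the higher of the lowest detected signal and the gene's own. Tested on simulated data for the pooled contrast over 10532 genes, it found 66% of simulated log2 differences of 0.5, 99.7% of those of 1 and 100% of those of 2, and 4.53% of its calls were false. The simulation had independent normal noise, 200 changed genes per run and the same difference in all 3 inhibited groups. Its false share holds for that setting and does not measure the false share of the real calls.

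Genes were named by a rule that took the 12 largest core differences and the 5 widest gaps in each direction, all measured activity transcripts, up to 4 core members of each list with the largest difference, the 6 smallest and 6 largest F-test p-values (the largest among the 100 largest differences), and 3 genes on each side of the rule's edge. Some of these are only counted in the text, and 1 of the genes with the largest differences above control is not reported here. JUN, ATF3, KLF10, IER5, IL17RD, ELOVL5, CCL5, HRAS, ADAM8, CXCL10 and KRT14 lie outside this and were chosen after their values were seen. The members and the 38 gene lists were chosen with earlier results of these data known. The alternatives tried were another scaling, background correction or offset, the authors' values, other probe filters, the mean of probes, a replicate block, each array or inhibited group left out, and the 9 inhibited arrays as 1 group.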

Additional observations from a re-analysis of the deposited data

Results flagged for a closer look

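The inhibited groups differed from one another by limma's F-test, adjusted over all genes, for 195 core genes. The adjusted p of each gene described above that passed is given here, over 3 arrays in each of the 3 inhibited groups. Among the genes with the largest differences below control, it was 1.51e-08 for TGM2, 0.0415 for EGR1, 1.00e-06 for MYEOV, 0.000194 for FOSL1, 0.000511 for FGFBP1 and 0.000257 for HSD3B1. Among the genes with the largest differences below control that remain, it was 0.000817 for ETV5, 0.000257 for CCND2, 0.00827 for CALB2, 3.35e-05 for C6orf15 and 9.96e-06 for PHLDA1. Among the genes with the largest differences above control, it was 0.015 for ACKR3, 0.0104 for C5orf46, 4.67e-05 for MFAP5, 0.0364 for IGFBP5, 0.00225 for NPPB and 1.49e-06 for KLF2. Among the genes with the largest differences above control that remain, it was 1.51e-08 for ACTA1 and 0.000262 for KRT16. Among the feedback, activity and cyclin genes, it was 8.37e-05 for CCND1, 0.00248 for DUSP5, 1.00e-06 for EPHA2, 0.00182 for MAFF, 3.23e-06 for SPRED1 and 3.48e-06 for SPRY2. Among the secreted and surface proteins, it was 1.68e-06 for CXCL8, 0.000106 for GDF15, 0.000847 for IL1A, 0.0124 for IL1RN, 0.000387 for ITGA2 and 0.0223 for KLK6. Among the secreted and surface proteins that remain, it was 0.00416 for KLK7, 0.00113 for NT5E, 0.0117 for PLAT, 0.000621 for PLAU, 0.00756 for SCNN1A and 0.00164 for TIMP1. For TIMP3 it was 0.000298. Among the other genes of the text, it was 0.000187 for ADAM8, 0.0377 for ATP2B4, 0.000176 for CALD1, 0.00146 for CCL5, 3.48e-06 for CXCL10 and 0.0413 for FASN. Among the other genes of the text that remain, it was 1.49e-06 for FUCA1, 0.000403 for HES2, 0.00265 for ID2, 0.0113 for ID3, 1.49e-06 for KRT14 and 0.0465 for STX11. For TGM1 it was 0.000724. 

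The 3214 kept probes without a single gene symbol were set apart from the genes above. Of these, 308 had all 9 inhibited arrays on one side of all 3 control arrays, 99 above and 209 below, and 14.3% passed limma's pooled test, 182 higher and 277 lower. Their genes are not named here.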

How the results depend on the processing

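The count of 1743 genes that passed the pooled test fell to 891 under median scaling, 1112 without the MEK inhibitor group and 831 with the 9 inhibited arrays as 1 group, and it ranged from 785 (without control replicate 1) to 1918 with 1 array left out. It was 1127 without control replicate 2 and 1009 without control replicate 3. The count of 1103 core genes became 570 under median scaling, of which 474 were shared, 1878 without the ERK inhibitor group and 1807 without the dominant-negative Ras group, and it ranged from 1163 to 1651 with 1 array left out, since fewer arrays have to lie on one side. The 195 core genes that differed among inhibited groups became 112 without the MEK inhibitor group and 91 without the ERK inhibitor group, and ranged from 149 to 233 with 1 array left out. Core genes above control made up 42.9% of the core, and 30.5% under median scaling, and the cause was not tested. Of 118 named core genes, 90 stayed in the core under median scaling, 114 with the authors' values and 108 with the mean of probes. UQCR10, just outside the rule, was reversed to 0.0302 with the mean of its probes. No other named gene that passed the pooled test, in the main run or in the alternative, changed sign. With the replicate number as a block, 1881 genes passed, 1454 met the rule (1032 shared) and 252 differed among inhibited groups. Same-numbered arrays' deviations correlated at r = -0.19 to 0.33, 9 of 18 pairs over 0.1, and 7 of 12 arrays were closest to their own number. The median r was 0.10 for same-numbered pairs and -0.06 for other pairs. Whether the numbers pair the samples is not stated in the labels and was not settled, and the main fit used no block. Intensity near background limits the lower bounds and the order of dim readings.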
